A study of Mus musculus with 7 samples.

Results

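MHC class II antigen presentation was examined in the fasted liver through 9 genes: H2-Aa, H2-Ab1, H2-Eb1, H2-Ea, H2-DMa, H2-DMb1, H2-Oa, Cd74 and Ciita. The members were the non-control probes that carry one of these gene names, and they came to 10 of the 55681 probes and 9 of the 36492 gene names on the array. The names found 8 of the 9 genes directly. The remaining one, H2-Ea, is listed by the array under the name H2-Ea-ps, which RefSeq gives as another name of the same gene. H2-Ab1 had 2 probes and every other member had 1.

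Liver RNA of single female mice on the C57BL/6 background, 8-12 weeks old and fasted for 24 h, was hybridised to 7 one-colour arrays. The 3 control livers were WT, and the 4 others came from SHIVA mice, which arose from chemical (ENU) mutagenesis and carry a point mutation that changes an amino acid in the DNA-binding HMG domain of the transcription factor Sox17. The labels call the genotype a Sox17 mutation without giving the zygosity, and by the study's genotyping the viable SHIVA mice were heterozygous; the mutation is germline, so it is present in blood-derived cells of the liver as well as in hepatocytes. Both groups had fasted, so the comparison is between genotypes and not between fed and fasted liver.

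MHC class II molecules are pairs of an alpha and a beta chain on the cell surface that show peptides from swallowed or internal proteins to CD4 T cells. The chains assemble around the invariant chain, encoded by Cd74, are led to endosomes, and exchange its last fragment for a peptide with the help of the H2-DM heterodimer, which H2-DO restrains. In the liver these genes are used mainly by Kupffer cells, dendritic cells and B cells, at lower level by sinusoidal endothelium, and hardly by resting hepatocytes; Ciita, the class II transactivator, switches the set on, and interferon gamma is its best known inducer.

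The class II genes share a promoter code, an X box followed at a fixed distance by a Y box, on which RFX, CREB and NF-Y proteins gather and Ciita docks. The stretches below are printed because 3 of the members that varied together across livers (H2-Aa, H2-Eb1 and H2-DMb1) and H2-Oa, which followed them less closely, hold the same pair of elements. RefSeq promoter windows of GRCm38.p6, from 250 bases before to 50 bases after each annotated start, were at hand for 5 members. They were searched on both strands for the letters GNAAC, the core of the X box, followed after 10 to 40 bases by GATTGG, the core of the Y box; the 2 cores cannot overlap, and the letters were chosen after the windows had been read. In each sequence below, written 5′ to 3′ on the gene's strand, the capitals mark first the X core and then the Y core. They lie at chr17:34287847-34287924 on the minus strand for H2-Aa, and on the plus strand at chr17:34305756-34305832 for H2-Eb1, chr17:34153077-34153154 for H2-DMb1 and chr17:34092283-34092360 for H2-Oa.
H2-Aa: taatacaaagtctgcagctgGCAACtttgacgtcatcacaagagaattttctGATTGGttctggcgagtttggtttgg
H2-Eb1: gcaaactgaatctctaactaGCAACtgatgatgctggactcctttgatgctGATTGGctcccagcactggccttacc
H2-DMb1: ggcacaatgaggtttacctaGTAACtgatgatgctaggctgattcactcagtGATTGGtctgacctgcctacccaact
H2-Oa: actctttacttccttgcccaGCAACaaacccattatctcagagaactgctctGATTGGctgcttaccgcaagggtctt

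The pair was found in the windows of H2-Aa, H2-Eb1, H2-DMb1 and H2-Oa, and in neither of the 2 windows of H2-DMa, of which 1 held the Y core without the X core letters before it. The cores were 27 bases apart in H2-Aa, H2-DMb1 and H2-Oa and 26 bases apart in H2-Eb1. Of all 32851 promoter windows, 16.11% held the Y core on either strand, 1.69% held the pair at 10 to 40 bases, and 0.13% (42 windows) held it at 26 or 27 bases. The spacing of 26 or 27 bases is the one seen in these members, which therefore match it by construction. The last share is a description and no test of the members. A match is a run of letters and was not tested as a binding site.

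**Figure D1:**
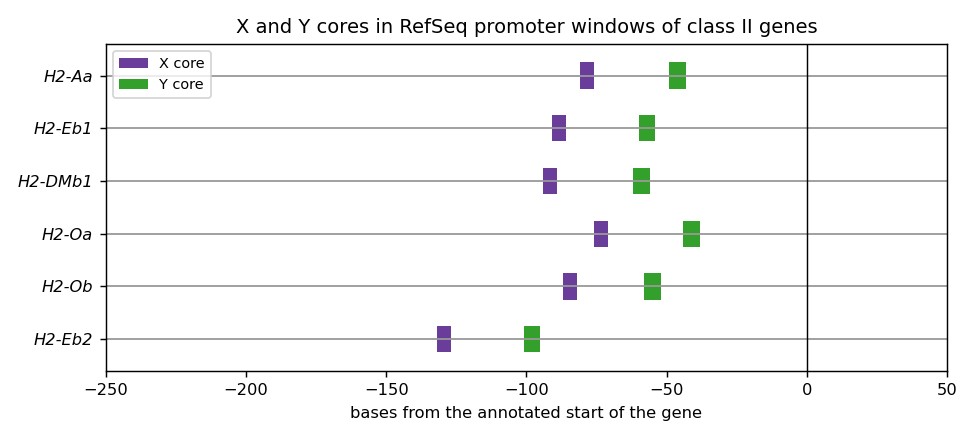
Positions of the X core (purple) and Y core (green) in RefSeq promoter windows of 6 class II genes, in bases from the annotated start; the line marks the 300 bases searched. The X core begins between -94 and -76 in the members H2-Aa, H2-Eb1, H2-DMb1 and H2-Oa, and H2-Ob and H2-Eb2, which are not members, hold the pair too.

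On the arrays, 44.5% to 46.3% of probes were well above background in WT and 45.8% to 48.7% in SHIVA, and no spot was saturated. The tissue label held, since albumin (Alb) had a log2 signal of 18.3 in both groups. The mutated gene gave a weak signal: the first of the Sox17 probes read 4.52, 3.41 and 3.92 in WT and 4.62, 4.47, 4.76 and 4.70 in SHIVA. The second read from 3.547 to 3.91 in WT and from 3.805 to 4.336 in SHIVA, where SHIVA 3 lay within the WT range. WT 2 was not well above background on either probe, and probes of this kind do not read a single base substitution. All 7 arrays shared 1 slide, with WT in one row and SHIVA in the other, so slide row and genotype cannot be told apart.

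The classical class II chains were expressed in every liver. All values below are log2 signals after quantile normalization, given in the order of the replicate numbers. H2-Aa, the alpha chain of I-A (probe at chr17:34421285-34421344, build mm9), measured 9.93, 9.04 and 10.79 in WT and 10.59, 11.26, 11.10 and 9.92 in SHIVA. H2-Ab1, the beta chain of I-A (probe at chr17:34406296-34406355), measured 11.51, 10.77 and 12.32 in WT and 12.27, 12.98, 12.93 and 11.56 in SHIVA. H2-Eb1, the beta chain of I-E (probe at chr17:34453075-34453134), measured 11.49, 10.72 and 12.38 in WT and 12.21, 13.27, 12.89 and 11.57 in SHIVA. In each of these genes WT 2 was the lowest liver and SHIVA 2 the highest, WT 3 was above SHIVA 1 and SHIVA 4, and the groups overlapped. The lowest and the highest liver were 4.65-fold apart for H2-Aa, 4.63-fold for H2-Ab1 and 5.87-fold for H2-Eb1.

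The second H2-Ab1 probe ran parallel to the first. The probes share 51 of their 60 bases with 1 differing base, which is in capitals in these stretches.
H2-Ab1, first probe: taaacgagacTcagactctg
H2-Ab1, second probe: taaacgagacCcagactctgg
The difference between the first and the second probe stayed between 0.34 and 0.43 on the log2 scale in all 7 livers. The probes therefore gave almost the same genotype difference, 0.90 each, and overlapping probes are no independent measurements.

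H2-Ea, the alpha chain partner of H2-Eb1, was not well above background on any of the 7 arrays. Its log2 signals were 1.78, 1.81 and 1.61 in WT and 1.52, 1.56, 1.60 and 1.66 in SHIVA, while the dimmest probes well above background lay between 3.11 and 3.54. C57BL/6 mice are known to carry a deletion at this gene and to display no I-E on the surface, and RefSeq lists it as a pseudogene. The H2-Eb1 transcript was thus measured beside an alpha chain probe with only an upper bound.

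Cd74, the invariant chain that guides class II chains to the endosome (probe at chr18:60972075-60972132), had nearly the same order of livers as H2-Ab1 and H2-Eb1. Its log2 signals were 12.23, 11.80 and 13.22 in WT and 13.04, 13.32, 13.73 and 12.28 in SHIVA. WT 2 was again lowest, and SHIVA 3 instead of SHIVA 2 was highest.

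The peptide exchange genes were also measured in all livers. H2-DMa, the alpha chain of H2-DM (probe at chr17:34274300-34274863), had log2 signals of 7.89, 7.51 and 8.65 in WT and 8.54, 9.11, 8.84 and 8.08 in SHIVA. H2-DMb1, a beta chain of H2-DM (probe at chr17:34297109-34297168), had 8.76, 7.75 and 9.23 in WT and 9.29, 9.90, 9.63 and 8.62 in SHIVA. The lowest and highest livers were WT 2 and SHIVA 2 for both genes, 3.02-fold apart for H2-DMa and 4.42-fold apart for H2-DMb1.

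H2-Oa, the alpha chain of the inhibitor H2-DO (probe at chr17:34232033-34232092), had a narrower range and another order. Its log2 signals were 6.18, 5.54 and 5.58 in WT and 6.15, 6.65, 5.85 and 5.65 in SHIVA. WT 3, a liver with high H2-Aa, was next to the lowest here, and WT 1, with low H2-Aa, was next to the highest. The whole range came to 2.16-fold.

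Ciita, the transactivator (probe at chr16:10526568-10526627), was not well above background on any array. Its log2 signals were 2.39, 3.47 and 2.60 in WT and 3.10, 2.84, 2.63 and 1.42 in SHIVA. The single probe for it is unusual in that 39 of its 60 bases are A, and a dim probe gives a bound on what it reads and no statement that the transcript is missing.

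**Figure D2:**
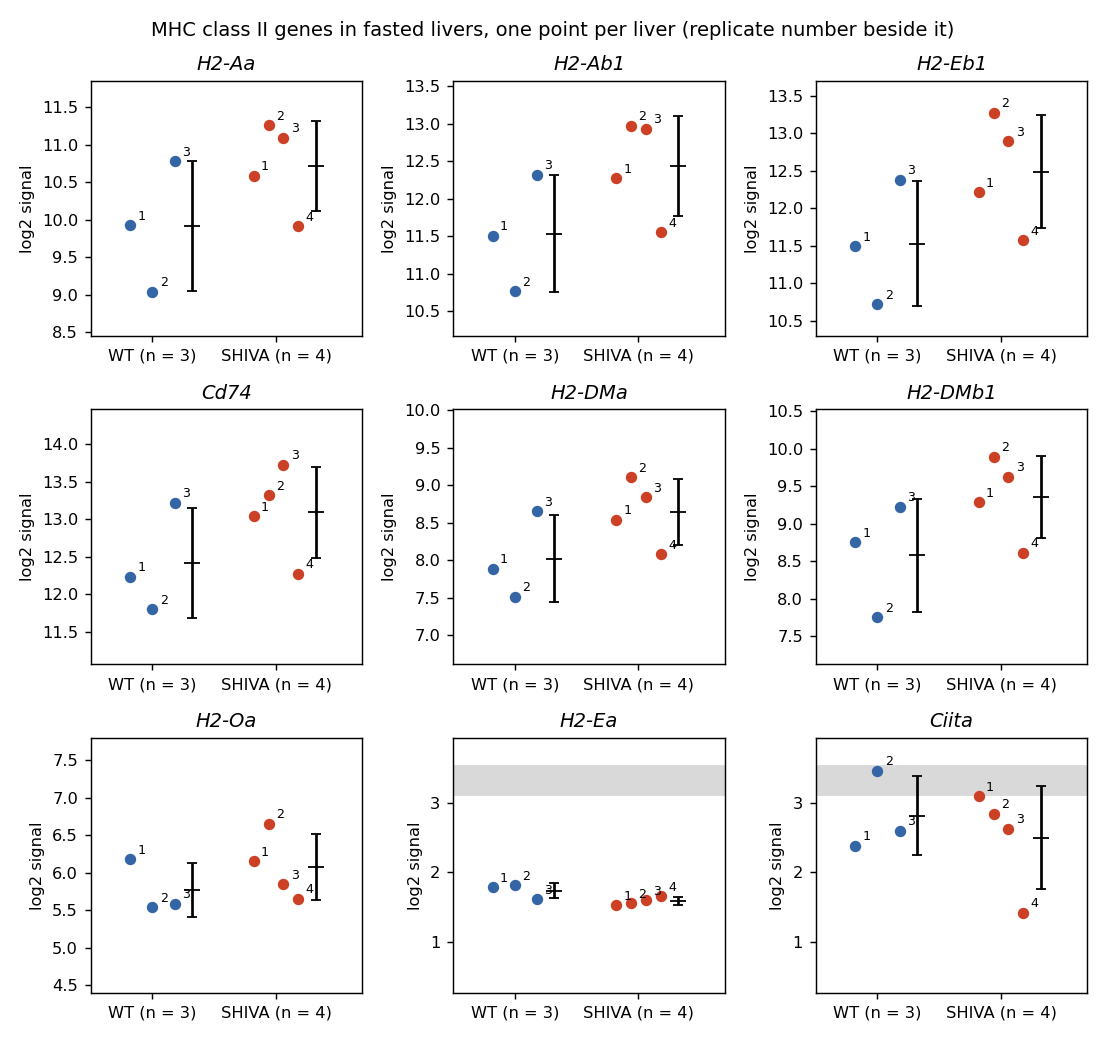
Log2 signal of the 9 class II genes after quantile normalization in 3 WT (blue) and 4 SHIVA (red) fasted livers; each point is 1 liver with its replicate number, bars are mean ± SD, each panel has its own log2 axis, and the grey band in the panels of H2-Ea and Ciita spans the lowest signals well above background on the 7 arrays (3.11 to 3.54). The groups overlap in all panels, and WT 2 is the lowest liver in the first 7 panels.

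The comparison of SHIVA with WT asks whether the Sox17 mutation goes with another level of class II transcripts in fasted liver. No class II gene passed the test. Of the 9 members, 7 were tested, each well above background on 7 of 7 arrays, and 0 were called by limma with Benjamini-Hochberg adjustment over 20002 genes at a threshold of 0.05, where 75 genes or 0.375% were called. At an unadjusted p under 0.05 the members again gave 0, against 13.3% of all genes tested (7.2% higher in SHIVA). None of the 7 had groups that did not overlap, against 12.1% of all genes.

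The fitted differences were nevertheless all above 0, with a median log2 fold change of 0.78 against -0.01 over all genes tested, of which 48.8% were above 0. These 7 values are not independent, because the genes varied together from liver to liver. The differences were 0.80 ± 0.44 (SE) for H2-Aa, 0.90 ± 0.43 for H2-Ab1 and 0.96 ± 0.47 for H2-Eb1 on the log2 scale (n = 3 WT and 4 SHIVA livers). Cd74 differed by 0.67 ± 0.40, H2-DMa by 0.62 ± 0.32, H2-DMb1 by 0.78 ± 0.39 and H2-Oa by 0.31 ± 0.27. The adjusted p by limma ran from 0.423 for H2-Ab1 to 0.678 for H2-Oa. The exact permutation test over livers, two-sided, gave p from 0.171 to 0.400, where the smallest p that 35 splits of 7 livers allow is 0.0286.

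The intervals were wide. The 95% interval of the log2 difference ran from -0.09 to 1.89 for H2-Ab1, from -0.12 to 2.04 for H2-Eb1 and from -0.25 to 1.60 for Cd74. They include no difference as well as SHIVA levels above 3-fold for H2-Ab1, so these livers do not show equal levels either. On simulated data of this design, 32% of genes changed by 1 on the log2 scale were recovered, and 88% of those changed by 2. The changed genes were drawn at random from all genes, each with its own spread. These shares are therefore not those of the class II genes, and the share for genes with their spread was not simulated.

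WT livers alone spanned more than the genotype difference. Between the lowest and the highest WT liver lay 1.74 for H2-Aa, 1.56 for H2-Ab1, 1.66 for H2-Eb1 and 1.42 for Cd74 on the log2 scale, each larger than the difference of the group means. For H2-DMa and H2-DMb1 the WT range was 1.14 and 1.48. H2-Oa had a WT range of 0.64, also larger than the difference of its group means. A range of single livers and a difference of means are unlike measures, so this sets sizes side by side and tests nothing.

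Single livers moved the size of the difference, and WT 2 and WT 3 moved it farthest for all genes but H2-Oa. Without WT 2 the log2 fold change of H2-Ab1 was 0.52 and that of H2-Aa 0.36; without WT 3 these were 1.30 and 1.23. H2-Eb1 went from 0.56 to 1.38 between the same omissions, Cd74 from 0.36 to 1.08, H2-DMa from 0.37 to 0.94 and H2-DMb1 from 0.36 to 1.103. H2-Oa moved with other livers, from 0.12 without SHIVA 2 to 0.51 without WT 1. SHIVA livers moved the other genes too. Without SHIVA 4, H2-Ab1 was 1.19 and H2-Eb1 1.265. H2-Eb1 was 0.70 without SHIVA 2, and Cd74 was 0.46 without SHIVA 3. A WT liver is 1 of 3 and a SHIVA liver 1 of 4, so leaving out a WT liver weighs more. The lowest adjusted p by limma among these omissions was 0.146, for H2-DMa without WT 3, so 0 members were called in any of them.

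**Figure D3:**
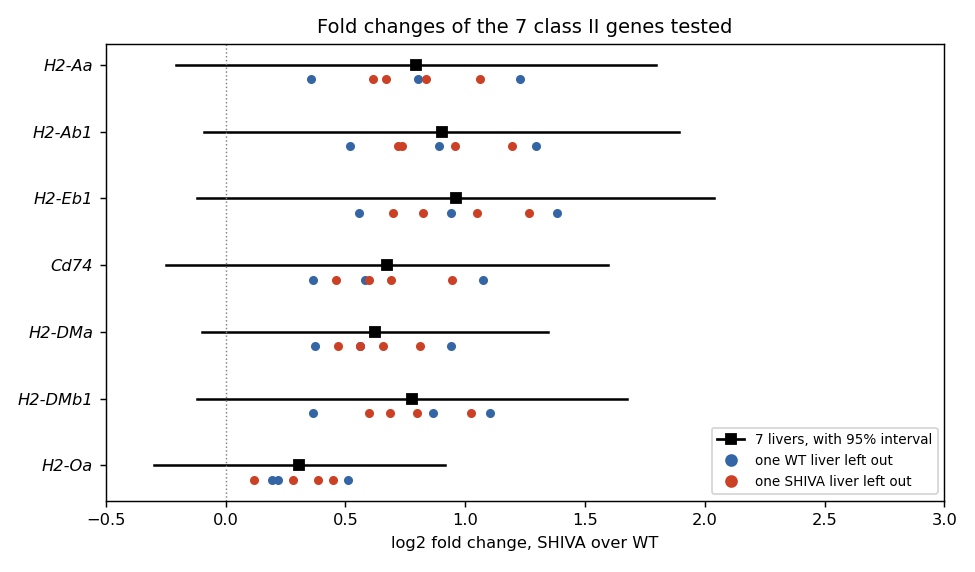
Log2 fold change of SHIVA over WT for the 7 class II genes tested; squares are the values over 3 WT and 4 SHIVA livers with 95% intervals from limma, and the points beneath leave out 1 WT (blue) or 1 SHIVA (red) liver. Every interval spans 0, and for all genes but H2-Oa the lowest and highest points are those without WT 2 and without WT 3.

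What stood out in the class II genes was how closely they followed each other. Over the 7 livers, the pairwise correlation among H2-Aa, H2-Ab1, H2-Eb1, Cd74, H2-DMa and H2-DMb1 ran from 0.926 to 0.993 (Pearson r). Correlations are given as descriptions without p; the points are the same 7 hybridisations, so all genes share each liver's RNA, its array and the normalization. A class II profile was taken as the mean of H2-Aa, H2-Ab1, H2-Eb1 and Cd74, each set to 0 over the livers. It ordered the livers as WT 2 (-1.24), WT 1 (-0.53), SHIVA 4 (-0.49), SHIVA 1 (0.20), WT 3 (0.35), SHIVA 3 (0.84) and SHIVA 2 (0.88). SHIVA 4 was thus close to WT 1, and WT 3 stood among the SHIVA livers.

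H2-DMa and H2-DMb1 did not enter the profile and still tracked it. H2-DMa had r = 0.988 (Spearman rho 1), and r = 0.975 over the 5 livers left without WT 1 and WT 2, the farthest from the median. H2-DMb1 had r = 0.981 (rho 0.929), and r = 0.976 without those livers. Among the 19957 genes tested that did not enter the profile, they had rank 4 and rank 8. The log2 signal of H2-DMa changed by 0.71 for each unit of the profile and that of H2-DMb1 by 0.89, against 1.11 for H2-Eb1.

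H2-Oa followed the profile less closely. Its correlation was 0.512 (rho 0.464), or 0.374 after the group means were taken out, and its log2 signal changed by 0.26 for each unit. The correlation of H2-Oa with the other tested members ran from 0.352 for Cd74 to 0.635 for H2-DMb1. H2-Ob, the beta chain partner of H2-Oa in H2-DO, had r = 0.07 with the profile and r = 0.82 (rho 0.75) with H2-Oa. This last pair was looked at after the values had been seen. H2-Oa carries the X and Y cores printed above at the same spacing as H2-Aa. H2-DMa, whose windows held no pair in the letters searched, followed the profile closely. Whether the pair bears on the likeness to the profile was not tested.

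**Figure D4:**
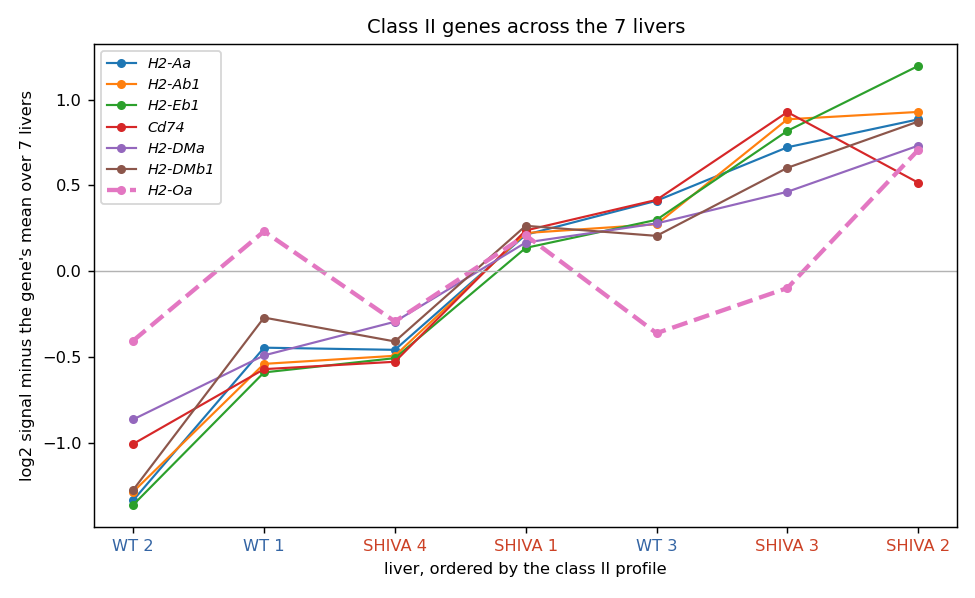
Log2 signal of the 7 class II genes tested, each minus its mean over the 7 livers, with livers ordered by the class II profile (WT names in blue, SHIVA names in red). Lines join the values of 1 gene; the solid lines climb together from WT 2 to the livers SHIVA 3 and SHIVA 2, while the dashed line of H2-Oa is low in WT 3 (5.58) and high in WT 1 (6.18).

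An array measure ran along with the profile. The share of probes well above background had r = 0.862 and rho 1 with it over the 7 arrays, with WT 2 lowest (44.5%) and SHIVA 2 highest (48.7%). The part of this measure in the class II levels was not tested. With raw mean signals and no background correction, the log2 fold change of the bright H2-Ab1 was 0.84, against 0.90 in the main fit. That of the dim H2-Oa was 0.17, against 0.31. This setting was quantile normalized too and does not take the array measure out, so it does not bear on that question.

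The non-members closest to the profile over the 7 livers were Itm2c (r = 0.996), Psmb8 (0.993), Rassf2 (0.988), Psme1 (0.986) and Zfp251 (0.986). Psmb8 is a catalytic subunit of the immunoproteasome, and Psme1 a subunit of the PA28 activator that docks on proteasomes; Itm2c encodes a membrane protein and Rassf2 a Ras association domain protein. Psmb8 ran from 10.34 in WT 2 to 11.50 in WT 3 within WT, and from 10.83 in SHIVA 4 to 11.70 in SHIVA 2 within SHIVA. Its probe (chr17:34337771-34337830) lies between those of H2-DMb1 and H2-Ab1. The Zfp251 signal, 3.60 to 4.80, was close to the background limit of the arrays. Of 19954 non-members, 269 had r of at least 0.9.

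The other genes of the class II pathway came from a list of 26, of which 23 were tested. None was called by limma (0.375% of all genes tested), and 19 fitted differences were above 0 and 4 below, with a median log2 fold change of 0.13. At an unadjusted p under 0.05, 4 were higher and 1 was lower in SHIVA, against 13.3% of all genes tested in either direction and 7.2% higher. Ctss, the cathepsin that trims the invariant chain in many antigen-presenting cells, had the highest value (0.72 ± 0.32, SE; limma adjusted p = 0.373). It measured 9.62, 9.04 and 9.94 in WT and 10.10, 10.91, 10.35 and 9.66 in SHIVA, and its correlation with the profile was 0.947. Marchf1, a ubiquitin ligase that removes class II molecules from the surface, had the lowest (-0.64 ± 0.21; limma adjusted p = 0.250). It measured 8.49, 8.06 and 8.39 in WT and 7.46, 7.55, 8.16 and 7.53 in SHIVA, where only SHIVA 3 reached into the WT range. H2-DMb2, a further H2-DM beta chain, lay between 3.09 and 4.25 in WT and between 3.13 and 4.53 in SHIVA. H2-Ob lay between 5.68 and 6.29 in WT and between 5.53 and 6.25 in SHIVA. Ifi30, which reduces disulfide bonds of antigens in the endosome, lay between 9.18 and 10.07 in WT and between 9.51 and 10.64 in SHIVA. H2-Eb2 and Rfx5, the latter a subunit of the X box factor RFX, were above background on 0 of 7 arrays.

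The class I pathway, which presents peptides from the cytosol to CD8 T cells, had 19 genes tested and 0 called by limma. Its median log2 fold change was 0.23, with 15 above and 4 below 0. Psmb10, another immunoproteasome subunit, had the highest value (0.78) and H2-K1, a classical class I heavy chain, the lowest (-0.20). H2-K1 lay between 15.29 and 15.88 in WT and between 15.23 and 15.54 in SHIVA. The mean level of the list had r = 0.944 with the class II profile over 7 livers, while the median r of its single genes was 0.610.

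The interferon gamma axis had 14 genes tested, 0 called by limma, and 13 fitted differences above 0 with a median log2 fold change of 0.41. At an unadjusted p under 0.05, 5 of them were higher in SHIVA, against 7.2% of all genes. Cxcl9, a chemokine induced by interferon gamma, had the highest value (1.52 ± 0.43; limma adjusted p = 0.207). It measured 7.29, 6.53 and 8.36 in WT and 8.62, 9.40, 9.30 and 8.32 in SHIVA. Ifngr2, a chain of the interferon gamma receptor, had the lowest value (-0.26), and Ifng itself was above background on 0 of 7 arrays. The mean level of the list correlated with the class II profile at r = 0.981, and within genotypes at 0.988; the median r of its single genes was 0.899.

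A whole liver mixes cell types, and in such RNA fewer cells of a type and less RNA per cell cannot be told apart. Markers of the cells that carry class II therefore stand beside the result. Of 11 pan-leukocyte markers tested, 11 had a fitted difference above 0, with a median of 0.55 and 0 called by limma. Their mean log2 level ran from 7.98 to 8.85 in WT and from 8.56 to 9.18 in SHIVA, and correlated with the profile at r = 0.917 (single-gene median 0.870). Ptprc, which encodes CD45, lay between 6.59 and 8.06 in WT and between 7.57 and 8.22 in SHIVA.

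The mean level of the Kupffer cell and macrophage markers followed the profile at r = 0.908, and the median r of the single genes was 0.869. Of 14 tested, 12 differences were above 0, the median was 0.36 and 0 were called by limma; the mean log2 level ran from 9.58 to 10.65 in WT and from 9.95 to 10.84 in SHIVA. Marco, a scavenger receptor, had the highest difference (1.54) and Cd163, the hemoglobin scavenger receptor, the lowest (-1.33; limma adjusted p = 0.123). Clec4f, the most specific Kupffer cell marker of the list, differed by 0.10. Every marker of this list was above background on at least 3 arrays.

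The mean level of the dendritic cell markers followed it at r = 0.929, and the median r of the single genes was 0.810. Of 12 listed, 10 were tested and 0 called by limma, 7 differences were above 0, the median was 0.56, and the mean log2 level ran from 6.60 to 7.17 in WT and from 7.14 to 7.80 in SHIVA. At an unadjusted p under 0.05, 4 of them were higher in SHIVA, against 7.2% of all genes. Clec10a, which is among these, was above background in 0 of 3 WT and 3 of 4 SHIVA livers and passed the filter through SHIVA alone. Itgax, which encodes CD11c, had the highest difference (1.46 ± 0.39; limma adjusted p = 0.187), with 4.34 to 5.84 in WT and 5.70 to 6.81 in SHIVA. Zbtb46 had the lowest (-0.21), and Xcr1, a marker of cross-presenting dendritic cells, was above background on 0 of 7 arrays. Monocyte markers had r = 0.930 (single-gene median 0.786) and a median difference of 0.55 over 8 tested genes.

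Single B cell markers went opposite ways with the class II profile, from r = -0.942 for the transcription factor gene Ebf1 and -0.756 for Cd22 to 0.721 for Cr2 and 0.831 for Blnk. The Ebf1 signal, 3.59 to 4.44, was close to the background limit and well above background on only 4 of 7 arrays. That limit itself had r = -0.91 with the profile, and its part in the Ebf1 value was not tested. The mean log2 level of the 11 tested ran from 5.72 to 6.19 in WT and from 5.86 to 6.20 in SHIVA, with r = 0.025 to the class II profile and r = 0.836 to H2-Oa. Their median difference was 0.12, with 7 above and 4 below 0 and 0 called by limma. Ms4a1, which encodes CD20, had the highest (0.62) and Cd79a, a chain of the B cell receptor, the lowest (-0.49). Pax5 and Blk were above background on 0 arrays. The mean level of 10 tested T and NK cell markers had r = 0.322 to the profile and 0.857 to H2-Oa, and its single genes also went opposite ways, from -0.872 for Cd3e to 0.790 for Thy1 against the profile. The Cd3e signal had a narrow range, 9.54 to 9.89, while Cd3d, between 5.73 and 6.84, had r = 0.531. H2-Oa was not particular to the lymphocyte lists. Its r was 0.733 with the mean level of the other class II pathway genes, 0.718 with monocyte, 0.713 with dendritic cell and 0.687 with neutrophil markers. With the remaining lists it ran from -0.897 for hepatocyte markers to 0.6 for the interferon gamma axis.

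Other cells of the liver are given for the same comparison. The 10 hepatocyte markers had a median difference of 0.03 and a mean log2 level from 15.9 to 16.2 in both groups, with r = -0.263 to the profile and r = -0.897 to H2-Oa. The mean level of the sinusoidal endothelial markers had r = 0.938 to the profile within a narrow range, while the median r of the single genes was 0.447. The mean log2 level ran from 9.15 to 9.33 in WT and from 9.25 to 9.37 in SHIVA, and the median difference was 0.11. Neutrophil markers had the highest median, 1.09 over 6 tested genes, with mean log2 levels of 4.69 to 5.68 in WT and 4.14 to 7.33 in SHIVA, and r = 0.715. Of these genes, Ngp and Ltf were above background in 0 of 3 WT and 3 of 4 SHIVA livers. They passed the filter through SHIVA alone, and their differences (2.15 and 2.17) rest on WT values not above background. Stellate cell markers had a median difference of 0.17 and r = 0.609 over 8 tested genes, and erythroid markers 0.43 and r = 0.711 over 3. Biliary epithelium markers, with 4 tested, had a median difference of -0.64 and r = 0.147. The parts of these cell types in the class II levels were not tested.

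**Figure D5:**
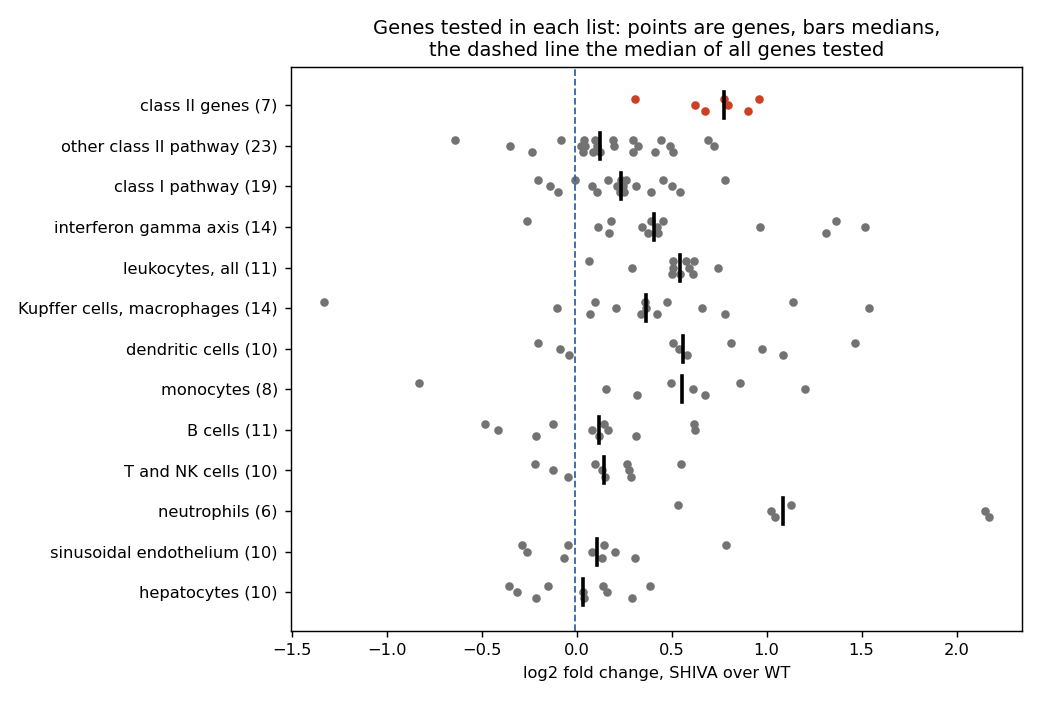
Log2 fold change of SHIVA over WT for every tested gene of 13 lists, named on the vertical axis with the number of genes tested; points are genes, black bars the medians of the lists, and the dashed line the median of all 20002 genes tested (-0.01). The class II genes (red) lie between 0.31 and 0.96, inside the range of the dendritic cell and Kupffer cell lists, and no gene of any list was called by limma.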

How the data were processed

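Liver RNA of 3 WT and 4 SHIVA mice was hybridised to one-colour Agilent arrays, read with Agilent Feature Extraction 10.5.1.1 per the labels. The deposited scanner files give the intensity of each spot, after spatial and multiplicative detrending within the array, without local background subtraction and with surrogate values for the lowest signals, per the file headers; a second file deposited by the authors holds log2 values and ranks the probes of each array as the raw mean intensities do, and it was used as an alternative. Here control spots were left out and log2 intensities were quantile normalized in R 4.3.3, as the study did. After that, 120 to 163 flagged spots per array were left out and the spots of a probe were averaged. Each gene was represented by its brightest probe on average, and 3 or more of the 7 arrays had to show it well above background for the gene to be tested. A total of 20002 genes were tested with limma 3.58.1 (SHIVA against WT, no covariate) and Benjamini-Hochberg adjustment at 0.05; of these, 41 had a missing value in some liver, filled in for no gene, and counts of groups that do not overlap leave them out. The number of arrays limits the precision. The study analysed its arrays by groups of genes, an analysis not used here, and names no test of single genes for them. That analysis by groups lists antigen processing and presentation among the pathways raised in SHIVA, with another method and another set of genes. The t-test its methods give for most other data was run as an alternative and is called the methods' t-test.

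Gene names were updated through RefSeq accessions for 26413 probes, and promoters came from RefSeq GRCm38.p6; probe positions are those of the files (mm9), and exon or UTR annotation in that build was not used here. Each mouse is 1 liver, so p-values measure the spread between mice. The named genes were all members with each of their probes and the 5 genes most like the class II profile. The highest and the lowest gene were named for the class II pathway, class I, interferon gamma, Kupffer cell, dendritic cell and B cell lists. Of the other lists only some genes or none were named. The members and the gene lists were chosen with earlier results of these data known. Replicate numbers did not pair the samples (correlation of deviations -0.05, 0.01 and 0.24). The fit was checked on simulated data of 19961 genes with 200 changed.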

Additional observations from a re-analysis of the deposited data

How the results depend on the processing

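All 7 tested class II genes kept a fold change above 0 and an adjusted p over 0.05 under each of the 18 alternatives run (19 for H2-Ab1), which were other scalings and background corrections, the authors' table, other filters, other probe and name choices, array weights, the replicate block, the methods' t-test and the omission of each liver; the adjusted p ran from 0.146 to 0.908 and 0 members were called. An unadjusted p under 0.05 came up in 4 of these alternatives for H2-Aa, H2-Ab1, H2-DMb1 and Cd74, in 6 for H2-Eb1 and H2-DMa, and in 0 for H2-Oa. Over all genes it came up for 4118 of 20002 with array weights and 3772 of 19784 without WT 3. It did for 2846 of 20002 with the replicate block and 2837 of 19798 without SHIVA 4, which gave each member the same fold change. On mean signals and the authors' table, the 2 further alternatives of H2-Eb1 and H2-DMa, it did for 2739 and 2743 of 20006. The main fit gave 2670 of 20002. The count of all genes called depended far more on the setting. Against 75 genes, limma called 139 on mean signals without background correction, 141 on the authors' table, 13 with no filter on dim probes and 267 with array weights, and the methods' t-test called 0 after adjustment, with 2296 genes at an unadjusted p under 0.05. Leaving out 1 liver gave from 3 genes (without WT 1) to 416 (without WT 3), with 8 without WT 2, 7 without SHIVA 1 and 13 without SHIVA 3. The cause was not tested. The median log2 fold change of all genes stayed between -0.02 and 0.00 throughout.

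The replicate numbers 1 to 3 occur in both groups, and their correlations are given under the processing. These livers share only a number. With the replicate block, 34 genes and 0 members were called, and the log2 fold change of H2-Ab1 was 1.19. Number 4 is held by SHIVA 4 alone, so this liver adds nothing to the difference in the block fit. The fold change of H2-Ab1 without SHIVA 4 was the same 1.19, so the rise from 0.90 goes with that liver and not with a pairing. Signal over background leaves H2-Ea and Ciita with only an upper bound in every setting.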
